A study of Mus musculus with 24 samples.

Results

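The genes described here encode the standing subunits of the mouse 26S proteasome. They were taken by name: every gene of the authors' normalized table whose symbol is Psma, Psmb, Psmc or Psmd followed by a number, without the inducible subunits Psmb8, Psmb9 and Psmb10. This gave 35 of the 12889 genes in that table. The count table holds 36 such symbols, and the extra one, Psmb11, is not in the normalized table and was not used. By role, the members comprise 8 genes of the 20S alpha ring, 4 structural and 3 proteolytic genes of the 20S beta ring, 6 ATPases and 3 other subunits of the 19S base, 8 subunits of the 19S lid and 3 chaperones that help to assemble the 19S base and are not part of the finished particle. Psma8 is a testis-enriched alternative to Psma7 and entered by its name only.

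The proteasome is the protease complex that degrades proteins tagged with ubiquitin. The 20S core is a barrel of alpha and beta rings with its cutting sites inside, and the 19S cap binds ubiquitin chains, removes them and threads the substrate into the core with its ATPases. In immune cells exposed to inflammatory signals, Psmb8, Psmb9 and Psmb10 can replace the proteolytic subunits Psmb5, Psmb6 and Psmb7, which changes the peptides that are cut for presentation on MHC class I.

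The cells were primary microglia from p0 mice of 2 strains: C57BL/6, called WT here, and B6.129S4-Cd14tm1Frm/J, in which Cd14 is disrupted, called KO here. CD14 is a co-receptor that passes lipopolysaccharide (LPS) to TLR4. Cells of each strain were left untreated, or were given Re-LPS at 0.1 ng/ml (LPS 0.1) or 10 ng/ml (LPS 10) or mouse fibronectin (FN) at 100 µg/ml, in each case with a treatment period of 3 h. Each of these 8 groups had 3 libraries from separate cell preparations, numbered 1 to 3, which makes 24 RNA-seq libraries, read here as counts per gene. The labels name strains only, so the 2 genotypes also differ in any other DNA that separates the strains, and the number of animals behind a preparation is not given in the sources used here.

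Library totals ran from 14939019 to 22143774 counts. Cd14 stood at 337 to 5330 CPM (counts brought to a common library size and scaled by edgeR's trimmed mean of M values, TMM) in the WT libraries and at 2.14 to 6.37 in the KO libraries. All 10 microglia markers were measured, with a summed level of 6880 to 10300 CPM per library, although the homeostatic markers P2ry12 (2.71 to 24.6 CPM) and Tmem119 (4.37 to 44.2 CPM) were low. Summed markers of other cells reached at most 44.6 CPM for astrocytes (8 of 8 measured), 92.1 for neurons (7 of 8), 454 for the oligodendrocyte lineage (9 of 9) and 0.625 for other leukocytes (4 of 9). The ribosomal RNA gene Rn45s took 3.62% of WT LPS 0.1 library 3, 5.92% of WT LPS 10 library 3 and 8.21% of KO LPS 0.1 library 2, and the libraries numbered 1 stand apart for a group of members described below.

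In the promoters of these genes, 4 stretches of sequence are shown because they belong to the members on which the results turn: Psma6, Psmb6 and Psmd10, the called members that rose most in WT cells at LPS 10, and Psmb5, the proteolytic subunit whose libraries differed most. They are RefSeq promoters on build GRCm38.p6, printed 5′ to 3′ on the gene's own strand, up to the base before the annotated transcript start. For Psma6 the promoter of an upstream start is not shown, and the annotated gene begins at chr12:55384222. Capitals mark, for Psma6, the ETS-type core CCGGAAG, for Psmb5 and Psmb6, the antioxidant response element core TGACNNNGC, and for Psmd10, the CCAAT box, which reads ATTGG where it lies on the other strand. Matches to the outline of an NF-κB site, counted below, are not marked. The regions are chr12:55398575-55398774 (plus strand) for Psma6, chr14:54618023-54618245 (minus strand) for Psmb5, chr11:70525107-70525356 (plus strand) for Psmb6 and chrX:140956729-140956961 (minus strand) for Psmd10.
Psma6: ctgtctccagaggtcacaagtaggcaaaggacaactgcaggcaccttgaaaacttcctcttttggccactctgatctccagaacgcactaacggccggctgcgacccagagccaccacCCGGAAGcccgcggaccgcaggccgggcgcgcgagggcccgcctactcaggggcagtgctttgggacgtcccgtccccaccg
Psmb5: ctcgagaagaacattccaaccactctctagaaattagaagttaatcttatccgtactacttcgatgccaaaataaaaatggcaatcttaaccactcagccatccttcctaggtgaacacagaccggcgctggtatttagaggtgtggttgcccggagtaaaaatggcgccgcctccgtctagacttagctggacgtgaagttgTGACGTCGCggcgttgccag
Psmb6: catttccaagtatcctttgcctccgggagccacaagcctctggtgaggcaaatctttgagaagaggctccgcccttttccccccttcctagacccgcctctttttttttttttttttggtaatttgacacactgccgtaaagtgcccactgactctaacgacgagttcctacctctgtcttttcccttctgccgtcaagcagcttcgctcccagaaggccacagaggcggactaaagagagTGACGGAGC
Psmd10: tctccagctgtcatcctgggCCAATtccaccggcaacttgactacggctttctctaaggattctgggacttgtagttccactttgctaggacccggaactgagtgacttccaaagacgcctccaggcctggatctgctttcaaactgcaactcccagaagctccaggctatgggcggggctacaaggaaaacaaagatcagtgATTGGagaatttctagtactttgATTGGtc

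The RefSeq table held 30 promoters of 28 members, each of 250 bases before and 50 bases after the start, and both strands were searched for 4 motifs. The core CCGGAAG, the kind bound by ETS-family factors, was in 11 of the 30 promoters (36.7%), against 8.86% of all 32851 promoters in the table. The core TGACNNNGC, the kind bound by NRF1 (Nfe2l1) and NRF2 (Nfe2l2) with small MAF partners, was in 5 of 30 (16.7%) against 12.4%. CCAAT, bound by NF-Y, was in 11 of 30 (36.7%) against 37.4%, and the outline of an NF-κB site was in 16 of 30 (53.3%) against 50.8%. These are matches of letters in a fixed window and carry no test. The NF-κB outline fixes only its outer bases and can overlap other GC-rich motifs.

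Scaled by transcript length, Psmb6 had the highest level of the members in untreated WT cells, at 147 CPM per kilobase. Psmd8 followed at 125, Psma1 at 98.3, Psma6 at 89.9 and Psmb4 at 87.9 CPM per kilobase. Psma8 was the lowest at 1.06, and its unscaled level stayed between 0.976 and 3.16 CPM in all 24 libraries. The other 2 proteolytic genes stood at 60.5 (Psmb7) and 23.6 (Psmb5) CPM per kilobase, the latter as a mean over 3 libraries that differ widely.

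At LPS 10, most proteasome subunit genes of WT cells stood higher than in untreated cells relative to the bulk of genes and none was called lower, whereas with library totals as the scale their median turned negative (-0.17). Of the 35 members, 24 rose (edgeR quasi-likelihood test, Benjamini-Hochberg adjusted p under 0.05 over 13294 genes), against 23.3% of all genes tested that were called higher. The median member changed by 0.63 on the log2 scale, against -0.01 for all genes, and 34 of 35 members lay above the median of all genes. The same 24 were the only members at an unadjusted p under 0.05. TMM sets the typical gene near 0, so changes are relative to it, and in bulk RNA fewer cells of a type and less RNA per cell cannot be told apart.

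Psmd10, the 19S assembly chaperone also known as gankyrin, had the largest called rise. WT cells without stimulus had 31.3, 28.2 and 31.4 CPM of Psmd10, and those at LPS 10 had 97.2, 76.1 and 102 CPM, with no overlap. This was a 3.02-fold rise (log2 1.60 ± 0.13 SE, adjusted p = 1.45e-08). Psma6, an alpha ring subunit, went from 98.7, 87.4 and 95.2 CPM to 268, 217 and 310 CPM. Every stimulated library of Psma6 was above every untreated one, a 2.83-fold rise (log2 1.5 ± 0.15, adjusted p = 1.2e-07). Psmb6, the beta subunit with caspase-like activity, went from 133, 111 and 106 CPM to 336, 244 and 246 CPM. The groups did not overlap and the rise was 2.35-fold (log2 1.24 ± 0.16, adjusted p = 4.36e-06). Of all genes tested, 26.7% had every WT LPS 10 library above every untreated one.

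The other 2 proteolytic subunits differed in how closely their libraries repeated. Psmb7, with trypsin-like activity, was at 80.6, 61.7 and 68.3 CPM in untreated WT cells and at 159, 104 and 120 CPM at LPS 10, a 1.82-fold rise (adjusted p = 0.0011) with no overlap. Psmb5, with chymotrypsin-like activity and the main target of proteasome inhibitors, was at 37.1, 16 and 10.5 CPM in untreated WT cells and at 54.6, 21.4 and 17.3 CPM at LPS 10. Library 1 was far above libraries 2 and 3 in both groups, so the groups overlapped and the change did not pass the test (log2 0.55 ± 0.69, adjusted p = 0.583). Within each library number, the LPS 10 level of Psmb5 was 1.46, 1.32 and 1.61 times the untreated one. With the library number as a block within each genotype, its change passed the test (log2 0.56 ± 0.08, adjusted p = 4.38e-06).

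By role, all 8 lid subunits rose at LPS 10 in WT cells. They included Psmd14, the deubiquitinase that removes ubiquitin chains at the lid (log2 0.96 ± 0.12), its partner Psmd7 (1.03 ± 0.10) and Psmd11 (1.23 ± 0.41). Of the 6 ATPases, 5 rose, led by Psmc5 (0.74 ± 0.10) and Psmc4 (0.68 ± 0.08), and of the other base subunits 2 of 3 rose, among them the ubiquitin receptor Psmd4 (0.63 ± 0.10). In the 20S core, 3 of 8 alpha ring genes, 3 of 4 structural beta genes and 2 of 3 proteolytic beta genes rose. The few alpha ring calls do not mean small changes: its median was 0.92, against 0.82 for the lid. Psma3 (1.53), Psma5 (0.93) and Psma4 (0.91) did not pass, and they are among the genes described below whose library 1 stood apart. With the library number as a block, 6 of the 8 alpha ring genes were called higher. Among the structural beta genes that rose without the block were Psmb4 (0.83 ± 0.08) and Psmb2 (0.61 ± 0.07). Of the 3 assembly chaperones only Psmd10 rose. Psma1, at log2 0.01, Psmd9, at 0.03, and Psmd5, at 0.25 ± 0.14 (adjusted p = 0.164), did not pass, and Psma8 was at -0.32.

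**Figure D1:**
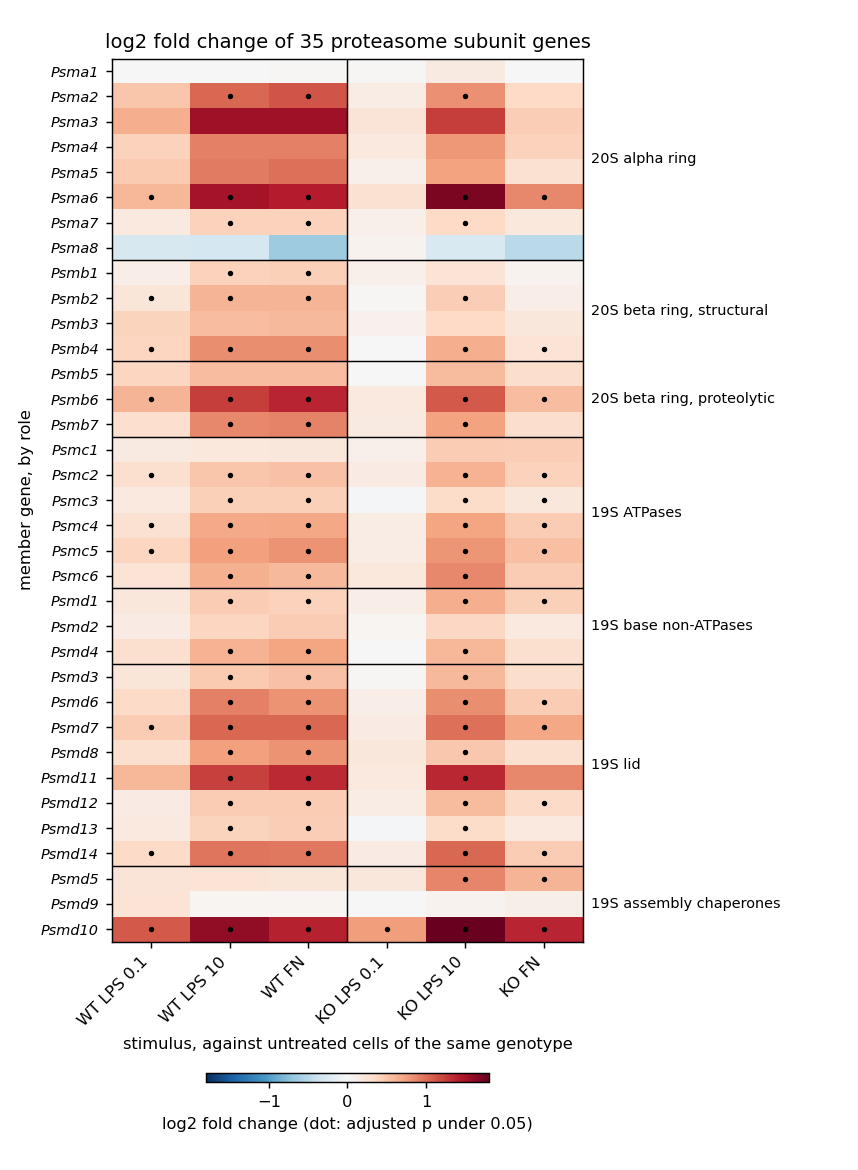
Log2 fold change of each of the 35 members (rows, grouped by role) for 3 stimuli in WT and in KO cells, each against untreated cells of the same genotype, with TMM scaling; a dot marks an adjusted p under 0.05. Of the 35 members, 24 carry a dot for LPS 10 in WT (23.3% of all genes were called higher) and 24 in KO (21.2%). For LPS 0.1, 10 carry one in WT (9.94%) and 1 in KO (0.722%). With library totals as the scale, 12 members were called lower (55.7%) and 3 higher (10.9%) for WT LPS 10.

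FN was also followed by rises of the members in WT cells on the TMM scale, where the median with library totals was -0.18. In WT cells 24 members rose with FN (23.7% of all genes were called higher), with a median log2 change of 0.61. Psmb6 rose 2.58-fold, to 354, 259 and 291 CPM, and Psma6 rose 2.67-fold, to 265, 207 and 279 CPM. Psmd10 rose 2.62-fold, to 85.2, 67 and 86.3 CPM. In the direct comparison of FN with LPS 10 in WT cells no member was called by edgeR (0% of all genes were), none had an unadjusted p under 0.05, and DESeq2 and limma called none. The members' differences between these groups ran from -0.32 to 0.13 on the log2 scale. The LPS and FN comparisons within a genotype share their untreated libraries.

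At the lower dose, 10 members rose in WT cells, against 9.94% of all genes, with a median log2 change of 0.29. Psmd10 was already 2.16-fold higher, at 70.9, 68.1 and 57.7 CPM, and Psma6 and Psmb6 were each 1.52-fold higher. Between the doses, 17 members were higher at LPS 10 than at LPS 0.1 in WT cells (14.8% of all genes), with a median of 0.35 and none called lower under TMM, whereas with library totals 1 was higher (6.32%) and 7 were lower (46%), with a median of -0.21 for the members and -0.57 for all genes. Under TMM, 1 member had an unadjusted p under 0.05 in the lower direction. The WT LPS 0.1 count moved with single libraries: it was 3 without WT LPS 0.1 library 1, 6 without library 2 of that group and 5 without WT untreated library 3. The count between doses was 10 without WT LPS 0.1 library 3 and 8 without the 3 libraries rich in Rn45s.

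In KO cells the response to LPS depended on the dose. At LPS 0.1 a single member, Psmd10, rose (0.722% of all genes were called higher). It stood at 25.9, 26.7 and 29.7 CPM in untreated KO cells and at 47.7, 43.3 and 47.5 CPM at LPS 0.1. This was 1.68-fold higher with no overlap (log2 0.75 ± 0.13, adjusted p = 0.00518). Of all genes, 4.4% had every KO LPS 0.1 library above every untreated one. At LPS 10, 24 members of KO cells rose (21.2% of all genes), with a median log2 change of 0.66, and no member had an unadjusted p under 0.05 in the lower direction. Psmd10 reached 89.8, 87.6 and 106 CPM (3.44-fold), and Psma6 went from 85.8, 81 and 97.7 CPM to 247, 266 and 340 CPM (3.22-fold). Psmb6 went from 140, 121 and 115 CPM to 315, 230 and 261 CPM (2.14-fold), and Psmb7 from 73.6, 61.5 and 67.2 CPM to 133, 96.8 and 106 CPM (1.66-fold). None of these 4 genes overlapped between untreated and LPS 10, and 22.3% of all genes had every KO LPS 10 library above every untreated one. Psmb5 was at 24.9, 9.86 and 8.82 CPM in untreated KO cells and at 37.3, 14.5 and 12.7 CPM at LPS 10 and did not pass (adjusted p = 0.592; with the library number as a block, 6.57e-06). Between the doses, 22 members were higher at LPS 10 than at LPS 0.1 in KO cells (18.3% of all genes), with a median of 0.58.

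**Figure D2:**
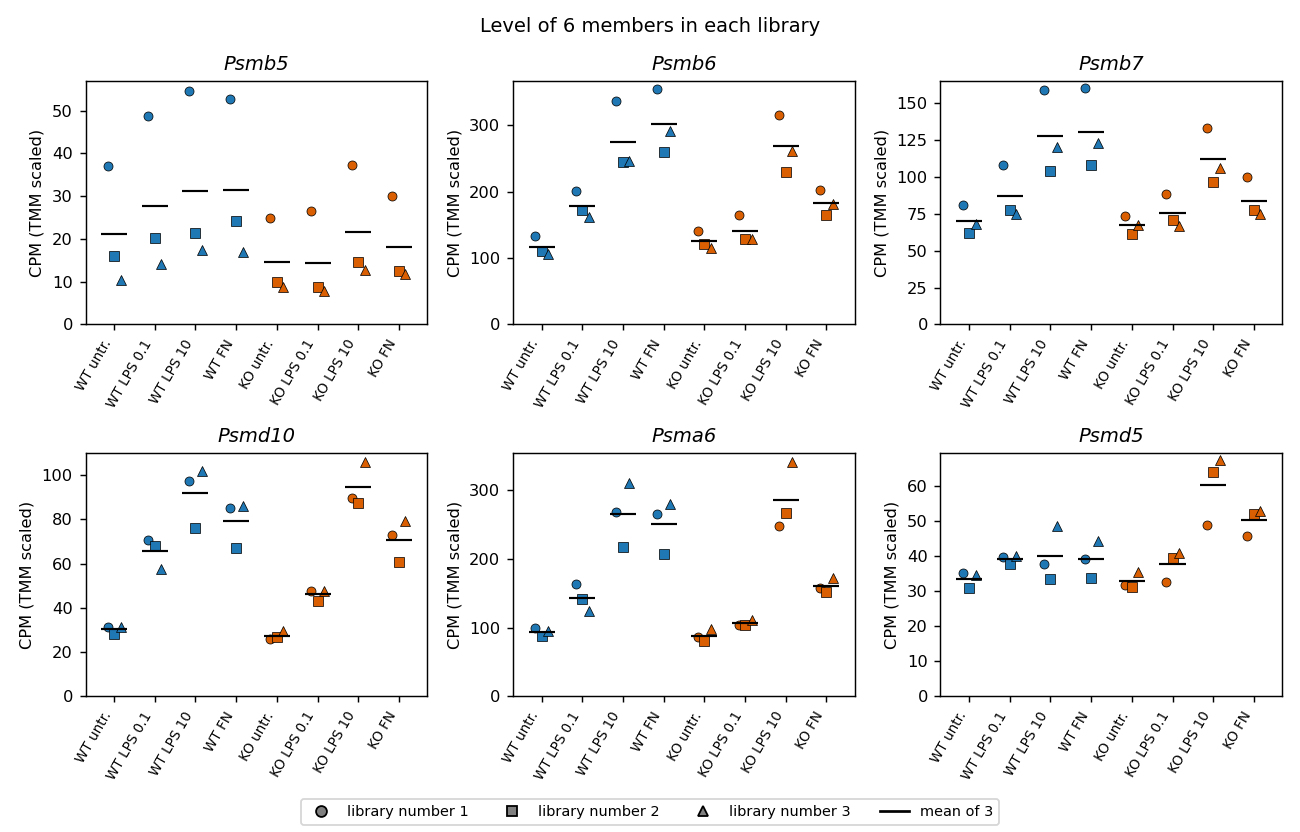
Level in CPM (TMM scaled, linear axis from 0) of the proteolytic subunits Psmb5, Psmb6 and Psmb7 and of Psmd10, Psma6 and Psmd5 in each of the 24 libraries; the marker shape gives the library number, the colour the genotype and the line the mean of 3. Psmd10 in WT cells sits between 28.2 and 31.4 untreated and between 76.1 and 102 at LPS 10, while library 1 of Psmb5 lies above libraries 2 and 3 in every group.

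In KO cells 14 members rose with FN (9.23% of all genes), with a median log2 change of 0.34 and 21 members at an unadjusted p under 0.05, all of them higher. Psmd10 rose to 72.9, 60.7 and 79.2 CPM (2.58-fold, log2 1.37 ± 0.13). Psma6 rose 1.82-fold, to 157, 152 and 172 CPM, and Psmb6 rose 1.46-fold, to 202, 165 and 182 CPM (log2 0.55 ± 0.16, adjusted p = 0.026). Psmb7 was at 99.6, 77.6 and 74.5 CPM and did not pass (log2 0.32 ± 0.19, adjusted p = 0.331), while Psmb5 was at 30.1, 12.4 and 11.8 CPM. The KO FN count was 9 without KO untreated library 1, 7 without KO untreated library 2 and 7 without KO FN library 3. Against LPS 10 in the same KO cells, 9 members were lower with FN under TMM (9.43% of all genes), with a median of -0.26, whereas with library totals 2 were lower (5.32%) and 1 higher (24.7%), with a median of 0.08 for the members and 0.35 for all genes. Under TMM the 9 included Psma6 (log2 -0.82 ± 0.15), Psmd14 (-0.59 ± 0.12) and Psmb6 (-0.55 ± 0.16). That count was 5 without KO LPS 10 library 3, 5 without KO FN library 1 and 4 without KO FN library 2.

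The difference between genotypes in the response to FN was tested directly, as the interaction of genotype and stimulus. With TMM scaling, 6 members had a smaller response in KO cells and none a larger one (11.3% of all genes had a smaller response), and 13 had an unadjusted p under 0.05, all in the same direction. DESeq2 called 12 smaller and limma 6, and the share of all genes was not computed for these. The 6 were Psmb6 (log2 -0.82 ± 0.23, adjusted p = 0.0135), Psmb4 (-0.59 ± 0.12, 0.00111), Psmd8 (-0.52 ± 0.18, 0.045), Psmd14 (-0.50 ± 0.17, 0.0346), Psmb2 (-0.49 ± 0.10, 0.0013) and Psmd4 (-0.42 ± 0.14, 0.0342). Psmd8 and Psmd14 belong to the lid, Psmd4 to the base, and the others to the beta ring. Psmb4 shows the pattern. It went from 98.6, 108 and 106 CPM to 189, 163 and 208 CPM with FN in WT cells, and from 101, 108 and 108 CPM to 123, 126 and 129 CPM in KO cells. The FN libraries of the genotypes did not overlap, and the untreated ones did. Of all genes, 20.7% had every KO FN library below every WT FN one. The count of 6 was 3 without KO untreated library 3, and without the libraries numbered 1 only Psmb6 of the 6 was called.

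This direction is relative to the other genes: with library totals in place of TMM, none of the 6 was called, 5 of them changed sign (Psmb2 0.16, Psmb4 0.06, Psmd14 0.15, Psmd4 0.23, Psmd8 0.12) and Psmb6 stood at -0.17, while the median of all genes moved to 0.65. On that scale 12 members had a larger response in KO cells (37.6% of all genes). Relative to the median of all genes, the median member was at -0.29 with TMM and at -0.28 with library totals, and 5 of 35 members lay above the all-gene median on either scale. The TMM factors were 0.648 to 0.773 in the WT FN libraries and 1.07 to 1.22 in the KO FN libraries. Among marker lists, the summed oligodendrocyte markers were 215 to 437 CPM in WT FN and 121 to 153 CPM in KO FN libraries, and the microglia markers 8040 to 8410 and 8460 to 9320 CPM. Their part in the result was not tested.

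**Figure D3:**
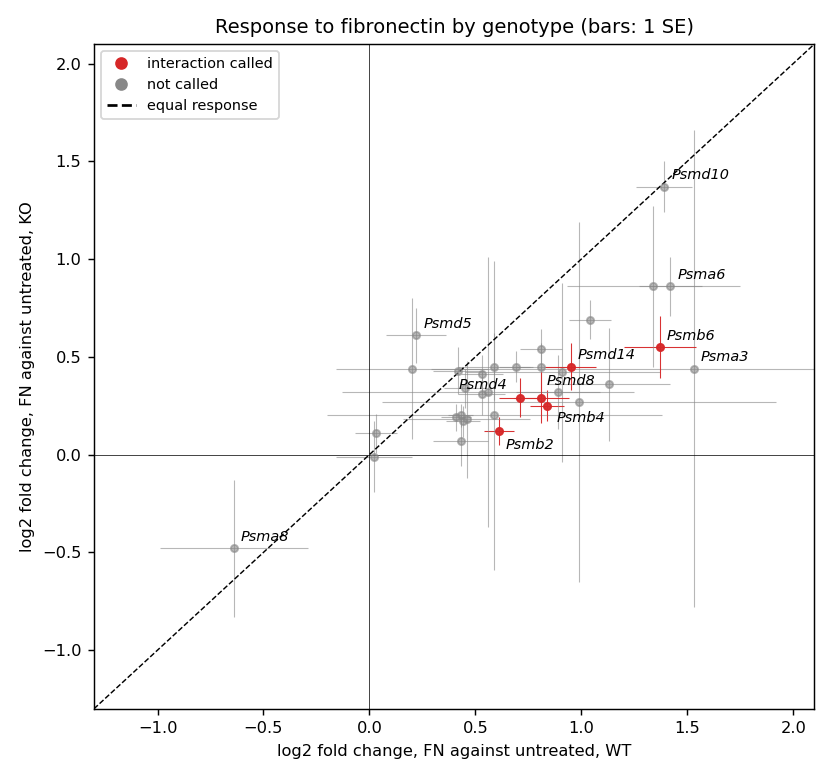
Log2 fold change of each of the 35 members with FN against untreated cells in WT (horizontal) and KO (vertical), TMM scaled, bars 1 SE, with the dashed line marking equal responses; red points are the 6 members with a called interaction. All 6 lie below the dashed line, from Psmb6 at 1.37 in WT and 0.55 in KO to Psmd4 at 0.71 and 0.29, while Psmd10 lies near it at 1.39 and 1.37; with library totals 5 of the 6 differences changed sign.

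The genotypes were also compared at each treatment. In untreated cells no member was called (0.00752% of all genes were), none had an unadjusted p under 0.05, and neither DESeq2 nor limma called one. Psmb5, with its wide spread, was lower in KO at each library number (24.9, 9.86 and 8.82 against 37.1, 16 and 10.5 CPM). In edgeR with the number as a block over both genotypes, Psmb5 was at log2 -0.52 ± 0.10 (adjusted p = 0.0626) untreated. At LPS 0.1 that fit gave -0.96 ± 0.10 (adjusted p = 5.76e-06). At LPS 0.1, 3 members were lower in KO cells (6.33% of all genes): Psmd10 (log2 -0.51 ± 0.13), Psmb4 (-0.36 ± 0.08) and Psmc3 (-0.21 ± 0.06). That count was 8 without WT LPS 0.1 library 3, 1 without library 1 of that group or without KO LPS 0.1 library 2, and 0 without WT LPS 0.1 library 2 or KO LPS 0.1 library 3. It was also 0 with library totals. With FN, 17 members were lower in KO cells (17.6% of all genes) with a median of -0.37 under TMM, but with library totals none was lower and 16 were called higher (51.4% of all genes), with the median of all genes at 0.68. At LPS 10, 1 member differed under TMM (15.9% of all genes in either direction) and was higher in KO cells, with a median of -0.03 over the members, whereas with library totals 11 members were higher (25.9%), with a median of 0.28 for the members and 0.35 for all genes.

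That member was Psmd5, a chaperone of the 19S base. In WT cells it was at 35.1, 31 and 34.7 CPM untreated and at 37.8, 33.4 and 48.7 CPM at LPS 10, overlapping groups. In KO cells it was at 31.8, 31.1 and 35.6 CPM untreated and at 48.9, 64.1 and 67.6 CPM at LPS 10, 1.83-fold higher (log2 0.88 ± 0.14, adjusted p = 6.82e-05). The KO LPS 10 libraries were all above the WT ones, as for 14.1% of all genes. The lowest was at 48.9 CPM against the highest WT library at 48.7 CPM. The difference was 1.51-fold (log2 0.59 ± 0.14, adjusted p = 0.00751). It no longer passed without KO LPS 10 library 3 (log2 0.50) or in a fit of the compared groups alone (log2 0.59). The interaction of genotype with LPS 10 was 0.62 ± 0.20 for Psmd5 and did not pass (adjusted p = 0.0872), although it did with the library number as a block (adjusted p = 0.00105). No member had a called interaction with LPS 10 (5.28% of all genes did), with 1 member at an unadjusted p under 0.05 and none called by DESeq2 or limma. For LPS 0.1 no member had one by edgeR (2.29% of all genes did), 2 had an unadjusted p under 0.05, and DESeq2 called 1.

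The preparations numbered alike in a genotype deviated together, so the fit was repeated with the number as a block nested in genotype, which compares libraries of one number. The block called 30 members higher for LPS 0.1 in WT cells (21.2% of all genes), 32 for LPS 10 (34.1%) and 32 for FN (35%). In KO cells it called 1 member for LPS 0.1 (3.08%), 33 for LPS 10 (31.8%) and 28 for FN (21.5%). Between the doses in WT cells it called 28 higher (27.9%) and 1 lower. For the interaction with FN it called 22 members smaller in KO cells (23.2%) and 2 larger (26.1%), for the interaction with LPS 0.1 it called 5 smaller (7.64%), and for that with LPS 10 it called 2 larger and 1 smaller (21.7% in either direction). For FN against LPS 10 in KO cells it called 28 lower (22.7%). A block over both genotypes was used for KO against WT. It assumes that a number has the same effect in both genotypes, which the labels do not state. Deviations of libraries of one number correlated at 0.226 to 0.884 across genotypes at one treatment, against 0.652 to 0.968 within a genotype. The block also takes libraries of one number as independent beyond that shared effect, so its counts may be too high. It called 18 members lower in KO at LPS 0.1 (10.9%), 26 lower with FN (24.4%) with 2 higher, none in untreated cells (0.143%), and 2 higher and 5 lower at LPS 10 (25.1% in either direction). Within each library number, 32 of 35 members were above the untreated library in all 3 WT pairs for LPS 10, against 38.6% of all genes, and the exceptions were Psma1, Psma8 and Psmd9.

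The scale also bears on the stimuli themselves. With library totals in place of TMM, 3 members were called higher (10.9% of all genes) and 12 lower (55.7%) for LPS 10 in WT cells, and 3 higher (11.2%) and 11 lower (55.6%) for FN. The median of all genes then stood at -0.80 and -0.78, and that of the members at -0.17 and -0.18. For LPS 10 in KO cells 9 members were higher (11.3%) and 1 lower, with the median of all genes at -0.50. The members' position relative to the median of all genes stayed at 0.63 and 0.60 in WT cells, and 34 of 35 members were above it in each. The TMM factors were 1.18 to 1.30 in untreated WT libraries and 0.648 to 0.773 in the WT LPS 10 and FN libraries. As a share of all raw counts the 35 members together took 0.267% to 0.349% in every library. Their summed TMM-scaled level was 2290 to 2511 CPM in untreated WT libraries, 3521 to 4330 at LPS 10 and 3547 to 4376 with FN.

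**Figure D4:**
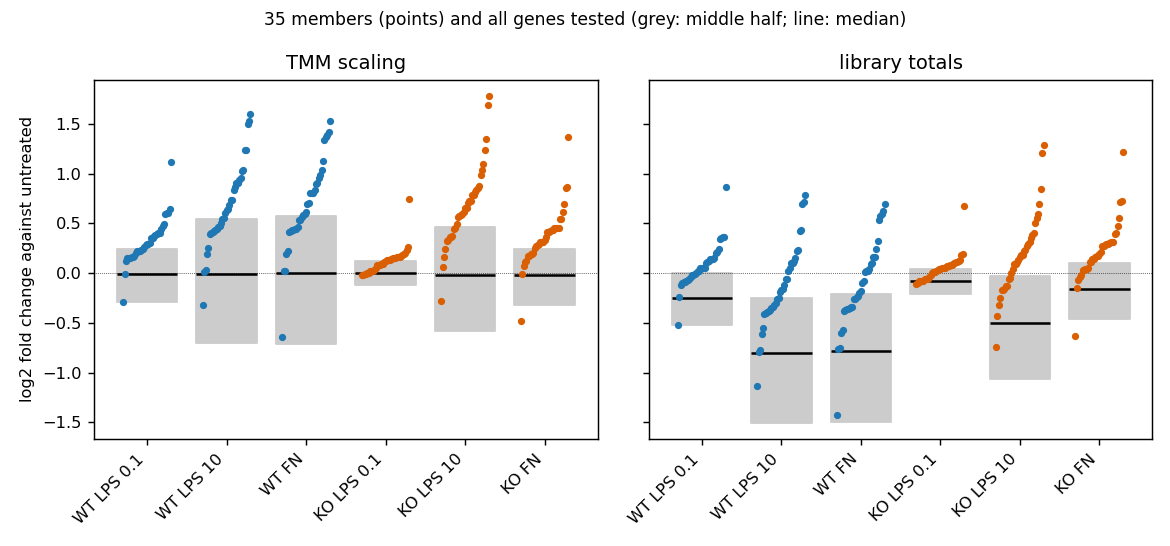
Log2 fold change of the 35 members (points, sorted within each stimulus) and of all 13294 genes tested (grey band: middle 50%, line: median) for the 6 stimuli against untreated cells, under TMM scaling (left) and library totals (right). The median of all genes sits at -0.01 for WT LPS 10 under TMM and at -0.80 under library totals, and the members keep their place above it while their sign changes (median 0.63 and -0.17).

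A group of 8 members stood higher in library 1 than in libraries 2 and 3 in every one of the 8 groups, by more than 0.5 on the log2 scale, a threshold chosen after seeing the values. Averaged over groups the excess was 5.69-fold for Psma3, 3.79-fold for Psma5, 3.12-fold for Psmb3, 2.71-fold for Psmb5, 1.97-fold for Psma4, 1.78-fold for Psmd11, 1.71-fold for Psmc1 and 1.56-fold for Psmd2. Psma3, an alpha ring subunit, was at 25.4, 4.4 and 3.9 CPM in untreated WT cells and at 70.9, 11.9 and 14.4 CPM at LPS 10. Psma2 lay just outside the threshold, with a lowest excess of 0.42. Of 8587 genes with a mean count of at least 100, 540 (6.29%) met the same rule. The 8587 leave out processed and unprocessed pseudogenes and symbols without sequence in GENCODE vM21.

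These 8 genes are also the members that share most sequence with annotated pseudogenes. At least 5% of the 50-base windows of their annotated transcripts occur letter for letter in a pseudogene of GENCODE vM21 (6.32% for Psmd11 up to 49.1% for Psma5), and the other 27 members share less, with Psma2 next at 2.79%. The exact match of the 2 groups depends on a cut placed between these 2 genes. For windows shared with any other gene, Psmd9 (24.9%), Psmb7 (9.26%), Psmd13 (8.23%) and Psmd1 (6.22%) also passed 5%. Their mean excess in library 1 was 0.06, 0.39, 0.11 and -0.11 on the log2 scale. Over the 8587 genes, 385 of 621 with at least 5% of windows shared (62.0%) met the rule for library 1, against 59 of 5651 with no window shared (1.04%). How the authors' counting treated reads that match several places is not given in the sources used here, and the cause of the excess was not tested. Levels and changes of these 8 genes are therefore uncertain, and 1 of them, Psmd11, was among the 24 called at LPS 10 in WT cells. The other 23 were of the 27 members that share less.

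The shared stretches are shown for 3 of these genes, as 50 coding bases that the gene and its pseudogene have in common. They are positions 104 to 153 of the Psma3 coding sequence, shared with Gm13835 (chr6:31141979-31142663, mm10), positions 79 to 128 of Psma5, shared with Gm8394 (chr10:85313488-85314439), and positions 466 to 515 of Psmb5, shared with Gm3375 (chr7:3181093-3181888). The longest identical runs between the pairs were 662, 248 and 194 bases.
Psma3: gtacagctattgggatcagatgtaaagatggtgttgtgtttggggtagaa
Psma5: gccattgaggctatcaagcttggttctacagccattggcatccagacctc
Psmb5: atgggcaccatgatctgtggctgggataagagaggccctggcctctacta

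**Figure D5:**
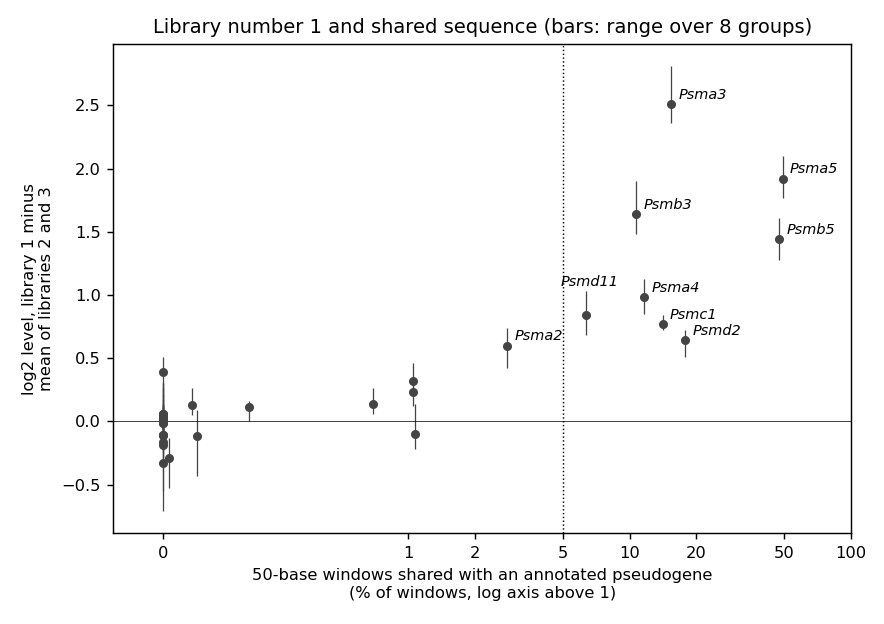
Excess of library 1 over the mean of libraries 2 and 3 (log2, points are means over 8 groups and bars the range) for each of the 35 members against the percentage of its 50-base windows found in an annotated pseudogene (log axis above 1, dotted line at 5%). The 8 members right of the line run from 0.64 (Psmd2) to 2.51 (Psma3), and the 27 left of it from -0.33 (Psma1) to 0.60 (Psma2).

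Without the 8 libraries numbered 1, an alternative chosen after seeing these values, 25 members rose at LPS 10 (20% of the genes tested in that fit) and 27 with FN (20.3%) in WT cells, and 27 rose at LPS 10 in KO cells (16.4%). The median member changed by 0.60, 0.63 and 0.61 there. At LPS 0.1 in WT cells 2 members rose (4.9%), and the 8 calls that were lost had a median log2 change of 0.36 with all libraries and 0.32 without those numbered 1. With FN in KO cells 7 rose (4.92%), and the 9 lost calls had medians of 0.43 and 0.39. A smaller response to FN in KO cells was called for 3 members (6.82%), of which Psmb6 (-0.78 ± 0.17) was also called with all libraries, and Psma2 and Psmb7 were not. The other 5 members called with all libraries lost the call, with a median of -0.50 in either fit. The summed markers of dividing cells (12 of 12 measured) also followed the number in KO cells, from 240 to 293 CPM in the libraries numbered 3 to 1530 to 1760 CPM in those numbered 1. Their part in the members' levels was not tested.

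Across the 24 libraries, after removing the mean of each genotype and number, the members moved together. The median Pearson r of a member with the others was 0.728 or more except for Psma1 (0.47), Psmd9 (0.0592) and Psma8 (-0.52). These libraries share their treatment groups, so the values hold the treatment changes given above and are a description. No such value for other genes stands beside them, so they do not set the members apart.

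The inducible subunits were tested in the same fit. In WT cells at LPS 10, Psmb8 rose 4.05-fold (log2 2.02 ± 0.17), Psmb9 5.38-fold (2.43 ± 0.30) and Psmb10 5.07-fold (2.34 ± 0.18). With FN in KO cells none of the 3 was called, at 0.04 ± 0.17, -0.12 ± 0.29 and 0.42 ± 0.17, with 1 of the 3 at an unadjusted p under 0.05. With the library number as a block within each genotype, 1 of the 3 was called higher there (21.5% of all genes). Without the block, the interaction with FN was called for each (-2.08 ± 0.24, -2.51 ± 0.41 and -1.95 ± 0.25). Ratios of counts within a library do not depend on the scale, and only their changes are read here because gene lengths differ. The ratio of Psmb9 to Psmb6 changed by 1.01 on the log2 scale with FN in WT cells (0.57 to 1.36 over the 3 library numbers) and by -0.66 in KO cells (-0.74 to -0.57). That of Psmb10 to Psmb7 changed by 1.47 in WT cells (1.07 to 2.02) and by 0.11 in KO cells (-0.02 to 0.28). For Psmb8 to Psmb5 the changes were 1.51 (1.03 to 1.81) and -0.29 (-0.42 to -0.22). In all 3 pairs the WT and KO ranges did not overlap.

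Other genes of the pathway were followed as fixed lists. For LPS 10 in WT cells the counts below stand beside 23.3% of all genes called higher and 26.1% called lower, and the list medians beside -0.01 for all genes. All are on the TMM scale. With library totals the median of all genes stood at -0.80, so the rises and falls of these lists are relative to the other genes. All 5 genes of proteasome activators and inhibitor rose (median 0.55), among them the PA28 subunits Psme1 (log2 1.49 ± 0.19) and Psme2 (2.61 ± 0.93). Psme2 was at 39.5, 12.6 and 12.4 CPM in untreated WT cells and at 246, 60 and 88.1 CPM at LPS 10, so library 1 stood apart for it too and its level is uncertain. Without the libraries numbered 1, Psme2 rose by 2.56 ± 0.29. Of 5 genes of 20S assembly (median 0.02), 1 rose, the maturation factor Pomp (0.50 ± 0.11), and 1 fell, Psmg2 (-0.45 ± 0.15). Of 9 cofactors bound to the proteasome (median 0.49) 4 rose, led by the thioredoxin-like Txnl1 (1.42 ± 0.17), and Zfand2a fell (-2.18 ± 0.32). Among ubiquitin genes and E1 enzymes, which activate ubiquitin and its relatives, 3 of 7 rose (median 0.68): Uba7 (2.27 ± 0.43), Uba6 (1.86 ± 0.27) and Uba1 (0.74 ± 0.08).

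Of 10 shuttle factors and segregase genes (median 0.44), 4 rose and 2 fell. Ddi2, the protease that processes NRF1, was one that fell (-2.33 ± 0.24). Of 11 genes linked to the transcription of subunit genes (median 0.47), 6 rose and 2 fell. Nfe2l1, which encodes NRF1, rose 2.5-fold (1.32 ± 0.25), and its small MAF partners Maff (4.65 ± 0.48) and Mafk (3.62 ± 0.27) rose more. With FN in KO cells Nfe2l1 rose by 1.11 ± 0.25 and Maff by 3.27 ± 0.45, while Mafk was at -0.19 ± 0.25 and did not pass.

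For the interaction with FN, 11.3% of all genes had a smaller and 11.8% a larger response in KO cells under TMM. Of the lists, transcription had 4 larger and 2 smaller, led by Mafk (-3.97 ± 0.36) and Mafg (1.2 ± 0.21), and the shuttle and segregase genes had 2 larger, Ddi2 (1.66 ± 0.32) and Ubqln2 (0.65 ± 0.15). Ubiquitin and E1 genes had 3 smaller, Uba7 (-2.66 ± 0.60), Uba6 (-1.23 ± 0.37) and Uba1 (-0.50 ± 0.11). The cofactors had 2 smaller, Txnl1 (-0.82 ± 0.24) and AI314180 (-0.70 ± 0.20), the activators 1, Psme1 (-1.28 ± 0.26), and 20S assembly 1, Pomp (-0.50 ± 0.16). With library totals the median of all genes in this contrast moved to 0.65, so these directions are relative to it.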

How the data were processed

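Total RNA was sequenced from 24 microglia libraries after TruSeq library preparation, per the labels' protocols. The authors deposited whole-number counts per gene and a normalized signal, which equals the counts divided by 1 factor per library. The submitters' processing notes name the aligner Bowtie2 2.1.0, the counter HTSeq 0.5.4, DESeq, build mm10, and for other steps SAMtools 0.1.19, CASAVA 1.8.2 and FastQC 0.10.0. The annotation, the use of strand and the treatment of multiply matching reads are not given in the sources used here.

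The main test was edgeR 4.0.16 on the deposited counts, run in R 4.3.3 (filterByExpr with minimum count 10, TMM, robust quasi-likelihood fit of 8 groups over 24 libraries, 16 residual degrees of freedom), with p adjusted over 13294 of 18919 genes within each of 17 contrasts. Calls were made below an adjusted p of 0.05. All 35 members passed the filter. The code was tested on simulated data. Alternatives were DESeq2 1.42.0, limma 3.58.1 on log2(normalized value + 1 or + 10), other scalings and filters, fits of the compared groups alone, single libraries left out and replicate blocks.

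The labels describe independent preparations, but libraries of one number deviated together: over 9458 genes their deviations from the group means correlated at 0.652 to 0.968 within a genotype (36 pairs), against -0.793 to 0.413 for other numbers (72 pairs), and at 0.226 to 0.884 across genotypes at one treatment (12 pairs). The numbers come from the labels, which do not say whether libraries of one number belong together, so the pairing was read from the data.

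The members and the pathway lists were chosen with earlier results of these data known. Values of every library were given for Psmb5, Psmb6 and Psmb7, for the 3 called members with the largest rise in WT cells at LPS 10, and for the member of highest length-scaled level; no member had a called fall there or a called interaction with LPS 10. Per-library values of Psmb4, Psmd5 and Psma3 were added after their values were seen. Lengths are of the longest principal transcript in GENCODE vM21. No protein sequence was used here.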

Additional observations from a re-analysis of the deposited data

Results flagged for a closer look

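The response to FN differed between KO and WT cells for 6 members, by the interaction of genotype and stimulus in edgeR (KO minus WT, log2, TMM scaling). Of all genes, 11.3% had a smaller response in KO cells. The difference was -0.82 for Psmb6, -0.59 for Psmb4, -0.52 for Psmd8, -0.50 for Psmd14, -0.49 for Psmb2 and -0.42 for Psmd4. With library totals as the scale none of these was called and 5 changed sign. With the library number as a block each of the 6 passed again, from an adjusted p of 1.98e-06 (Psmb6) to 0.000381 (Psmd14). Without the libraries numbered 1, Psmb6 alone of the 6 was called.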

How the results depend on the processing

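Depth limits the members little, apart from Psma8, and 3 libraries a group limit small changes. Alternatives without the libraries numbered 1 or the Rn45s-rich ones were chosen after seeing the data. The cause of each change below was not tested. Counts are members called, with the value under TMM in brackets. Where no share of all genes is given here or above, none was computed, and the count shows only how the members' calls moved.

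With library totals, higher counts were 2 for WT LPS 0.1 (10), 3 for WT LPS 10 (24), 3 for WT FN (24), 9 for KO LPS 10 (24), 7 for KO FN (14), 1 between WT doses (17), 5 between KO doses (22), 11 for KO against WT at LPS 10 (1), 16 with FN (0), 12 for the FN interaction (0), 2 for the LPS 10 interaction (0) and 1 for KO FN against LPS 10 (0). Lower counts were 12 for WT LPS 10, 11 for WT FN, 1 for KO LPS 10, 7 between WT doses, 1 between KO doses (0 each), 2 for KO FN against LPS 10 (9), and 0 for KO against WT at LPS 0.1 (3), with FN (17) and for the FN interaction (6). On that scale, of all genes, 51.4% were higher for KO against WT with FN, 25.9% at LPS 10 and 37.6% for the FN interaction. Higher were also 10.9% for WT LPS 10, 11.2% for WT FN, 11.3% for KO LPS 10 and 24.7% for KO FN against LPS 10. Lower were 55.7% for WT LPS 10, 55.6% for WT FN and 46% between WT doses. Of named members, Psmb2 (0.16), Psmb4 (0.06), Psmd14 (0.15), Psmd4 (0.23) and Psmd8 (0.12) changed sign in the FN interaction. With upper quartile scaling the counts were 3 for WT LPS 0.1, 8 for KO FN, 10 higher and 1 lower between WT doses, 3 for the FN interaction, 3 for KO FN against LPS 10, 8 lower and 2 higher for KO against WT with FN, and 1 at LPS 0.1.

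With the replicate block nested in genotype the counts were 30 for WT LPS 0.1, 28 for KO FN, 28 higher and 1 lower between WT doses, 22 lower and 2 higher for the FN interaction, 5 lower for that with LPS 0.1, 2 higher and 1 lower for that with LPS 10, and 28 for KO FN against LPS 10. With the replicate block over both genotypes they were 20, 25, 26 higher, 15 lower and 1 higher, 1 lower, 2 higher, and 20 in that order, and for KO against WT 18 lower at LPS 0.1, 26 lower and 2 higher with FN, and 2 higher and 5 lower at LPS 10. The block moved no other count by over 1.5 times. Counts from the block over both genotypes assume that a number has the same effect in WT and KO cells.

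DESeq2 called 12 lower for the FN interaction, 1 for that with LPS 0.1, 16 for KO FN against LPS 10, 10 for KO against WT at LPS 0.1 and 2 at LPS 10. Without a filter the counts were 6 for WT LPS 0.1, 3 for the FN interaction and 5 for KO FN against LPS 10. With at least 5 CPM in 3 libraries, KO against WT gave 8 lower at LPS 0.1, 1 lower at LPS 10 and 1 higher with FN, and limma on values plus 1 or plus 10 also gave 1 higher with FN. With only the groups compared, the counts were 6 for WT LPS 0.1, 0 for KO LPS 0.1, 7 for KO FN, 8 between WT doses, 3 for the FN interaction, 3 for KO FN against LPS 10, and for KO against WT 0 at LPS 0.1, 0 at LPS 10 and 10 with FN.

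Without the libraries numbered 1 they were 2 for WT LPS 0.1, 0 for KO LPS 0.1, 7 for KO FN, 3 for the FN interaction, 3 for KO FN against LPS 10 and 0 for KO against WT at LPS 0.1. With the block added, the FN interaction gave 11, KO FN against LPS 10 gave 16 and the LPS 10 interaction 1. Without the 3 Rn45s-rich libraries there were 8 between WT doses, 1 higher for the LPS 10 interaction and 1 higher for KO against WT with FN.

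Leaving out single libraries gave 3 to 10 for WT LPS 0.1, 7 to 13 for KO FN, 10 to 16 between WT doses, 3 to 7 for the FN interaction, 0 to 1 higher for the LPS 10 interaction, 4 to 8 for KO FN against LPS 10, and for KO against WT 0 to 8 lower at LPS 0.1, 0 to 1 higher at LPS 10 and 0 to 1 higher with FN. The higher call with FN appeared without WT FN library 3 or KO FN library 1, and that in the LPS 10 interaction without WT LPS 10 library 3 or KO LPS 10 library 1. The members' median for KO against WT at LPS 10, relative to all genes, was -0.07, and it ran from -0.15 without WT LPS 10 library 2 to 0.01 without library 1.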
